A study of Mus musculus with 18 samples.

Results

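*Kmt2c* KO and *Kmt2d* KO cells of 67NR were compared directly with each other, to find the genes and functions that separate the 2 knockouts. 67NR is a mouse mammary tumour line that does not metastasize. The comparison used 6 of the 18 RNA-seq libraries of the series, 3 of *Kmt2c* KO and 3 of *Kmt2d* KO cells. They were chosen by their labels alone. The 3 libraries of 67NR WT, the parental cells, gave the reference level and shared the estimates of spread and of the replicate effect, and the libraries of a second line, 168FARN, were used for 1 test between lines. Each knockout was a sorted pool made by transfecting 3 sgRNA vectors against the gene together with a Cas9-GFP plasmid. The pools are not clones and can hold alleles that were not edited. By the study's own sequencing of the target sites in 67NR, editing was less complete in the *Kmt2c* pool than in the *Kmt2d* pool, and the part of this in the differences was not tested. The replicates are collections of the same pool at different passages, so the p-values measure the spread between collections and not between independently made knockouts.

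*Kmt2c* and *Kmt2d* encode related histone methyltransferases, also called MLL3 and MLL4, that place H3K4me1 at enhancers. Each protein is the catalytic core of its own complex, and both complexes share subunits such as UTX, the H3K27 demethylase encoded by *Kdm6a*. In mammary epithelium, enhancers of this kind keep cell adhesion, keratin and lineage genes active, and many tumour cells that lose them take on features of mesenchymal cells.

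The sgRNAs are shown because they define the 2 cell pools and place the edits in each gene. Each is written 5′ to 3′ in lower case, followed in capitals by the adjacent NGG motif (PAM) that was read from the mouse genome (mm9). All 6 guides of 20 bases had 1 exact match in mm9.
Kmt2c guide 1: tctttgcgaggccggccccgAGG
Kmt2c guide 2: ggtgactaggatgtcgtcggAGG
Kmt2c guide 3: ggggaagcgccatctttgcgAGG
Kmt2d guide 1: acggtaaatccaggtcggagTGG
Kmt2d guide 2: gaaatcctcatccgagaacaTGG
Kmt2d guide 3: gagtggtcacccttcccccgGGG

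The *Kmt2c* guides matched chr5:25004241-25004260 on the plus strand, chr5:25004359-25004378 on the minus strand and chr5:25004229-25004248 on the plus strand. All 3 sites lie in exon 1 of the gene (named *Mll3* in the GENCODE vM1 annotation of mm9), in sequence annotated as coding in some transcripts and as UTR in others. The *Kmt2d* guides matched the plus strand at chr15:98701571-98701590, chr15:98701464-98701483 and chr15:98701588-98701607. These 3 sites lie in exon 1 of *Kmt2d* (*Mll2* in that annotation), which GENCODE vM1 gives there as UTR and not as coding sequence. Newer annotation was not checked. Of the 6 listed oligo pairs, 5 have a reverse oligo that complements the forward oligo. The reverse oligo listed for *Kmt2d* guide 2 is identical to the forward oligo of *Kmt2c* guide 1.

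Between 40951775 and 79251530 reads per 67NR library were counted on gene symbols. *Rn45s*, the precursor of ribosomal RNA, took 0.495% to 0.701% of the counts in 7 libraries, 2.45% in *Kmt2d* KO replicate 1 and 28.7% in *Kmt2d* KO replicate 3, and its row was dropped before scaling. In those 2 libraries, *Rmrp*, the RNA of a ribonuclease that processes ribosomal RNA, stood at 19.9 and 341 CPM (read counts scaled to a common library size by TMM, trimmed mean of M values) against at most 2.22 CPM elsewhere. *Lars2*, which encodes a mitochondrial leucyl-tRNA synthetase, stood at 957 and 20964 CPM against at most 689 CPM, and neither gene passed the test. These 2 genes were picked after their values were seen. The first principal component of the 6 knockout libraries, with 53.7% of the variance, separated replicate 3 from replicates 1 and 2, and the second, with 25.9%, separated the genotypes. Replicate number was a block in the fit, a choice made with the comparison and not from these components.

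In all, 1004 of 13675 genes tested (7.34%) differed between the knockouts, at an adjusted p under 0.1 (edgeR's quasi-likelihood test) with an absolute log2 fold change over 0.6. Of these, 787 genes (5.76% of those tested) were lower in *Kmt2c* KO and 217 (1.59%) were higher. The differences among the lower genes were also larger. Their median log2 fold change was -1.08 (interquartile range -1.44 to -0.83), with 456 genes beyond 2-fold and 77 beyond 4-fold. Among the higher genes the median was 0.78 (0.68 to 0.96), with 52 beyond 2-fold and 14 beyond 4-fold. The median over all genes tested was 0.01. Among the lower genes, 554 had all 3 *Kmt2c* KO libraries below all 3 *Kmt2d* KO libraries, an order found in 9.76% of all genes tested. Among the higher genes, 152 had the opposite order, found in 9.74%. Neither order was used by the test, but both follow from a large difference.

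The count of genes rested on the block and on single libraries more than its direction did. With no replicate block, 193 genes were called, 176 lower and 17 higher, and all 193 were among the 1004. Leaving out *Kmt2d* KO replicate 1 gave 466 genes, leaving out *Kmt2c* KO replicate 2 gave 488 and leaving out *Kmt2c* KO replicate 1 gave 621. The higher genes numbered 31, 59 and 48 without these libraries, 141 without *Kmt2d* KO replicate 2, 355 without *Kmt2c* KO replicate 3 and 446 without WT replicate 3, and the lower genes numbered 435 without *Kmt2d* KO replicate 1 and 429 without *Kmt2c* KO replicate 2. With replicates 1 and 2 only, 1656 genes were called, 1018 lower and 638 higher. Every one of the 1004 genes that had a value kept its sign in each of these fits. They were chosen by a large difference in the same libraries, so kept signs are no independent check. The share of called genes that were lower was 78.4% in the main fit. It was 93.3% without *Kmt2d* KO replicate 1 and 61.5% with replicates 1 and 2 only.

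**Figure D1:**
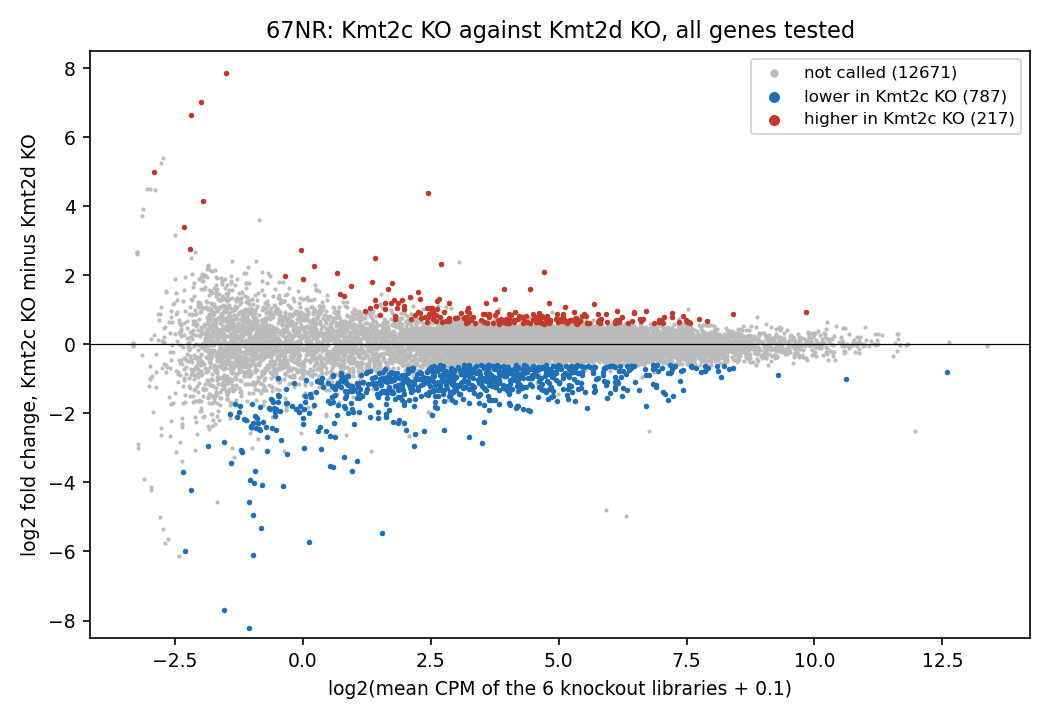
Each point is 1 of the 13675 genes tested, with the log2 of the mean CPM of the 6 knockout libraries plus 0.1 on the x axis and the log2 fold change of *Kmt2c* KO against *Kmt2d* KO on the y axis. The 787 lower genes (blue) reach further from 0 than the 217 higher genes (red) over most of the range of levels, and the few points beyond 4 on either side sit mostly at low levels.

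Both knockouts differed widely from WT: 5652 genes (41.3%) were called in *Kmt2c* KO against WT and 4471 (32.7%) in *Kmt2d* KO against WT. The WT libraries are not part of the contrast between the knockouts, so the WT level of the 1004 genes shows where each knockout lay. For 707 of the 787 lower genes (89.8%), the WT mean was above the *Kmt2d* KO mean, so the order was *Kmt2c* KO, *Kmt2d* KO, WT from low to high. Of the 6634 genes tested with a lower mean in *Kmt2c* KO, 61.0% had this order. WT lay between the knockouts for 58 genes (7.37%) and below *Kmt2c* KO for 22 (2.80%). For 174 of the 217 higher genes (80.2%), WT was below *Kmt2d* KO, against 58.8% of the 7041 genes with a higher mean in *Kmt2c* KO.

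The level of *Kmt2d* KO can be placed on the span from *Kmt2c* KO, at 0%, to WT, at 100%, and the place depends on the scale. On mean CPM, the median position of the 707 lower genes was 32.1% (interquartile range 22.7% to 45.2%), with 564 of them (79.8%) under 50%. On the log2 scale of the fit, which was added after the values on mean CPM were seen, the median was 50.7% (42.1% to 61.9%), with 337 (47.7%) under 50%. For the 174 higher genes the medians were 54.1% on mean CPM and 30.1% on the log2 scale. Whether *Kmt2d* KO lay nearer to *Kmt2c* KO or to WT thus cannot be said without naming the scale. On mean CPM the fold threshold alone keeps higher genes above 34.0%, so the medians of the 2 groups are not comparable.

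**Figure D2:**
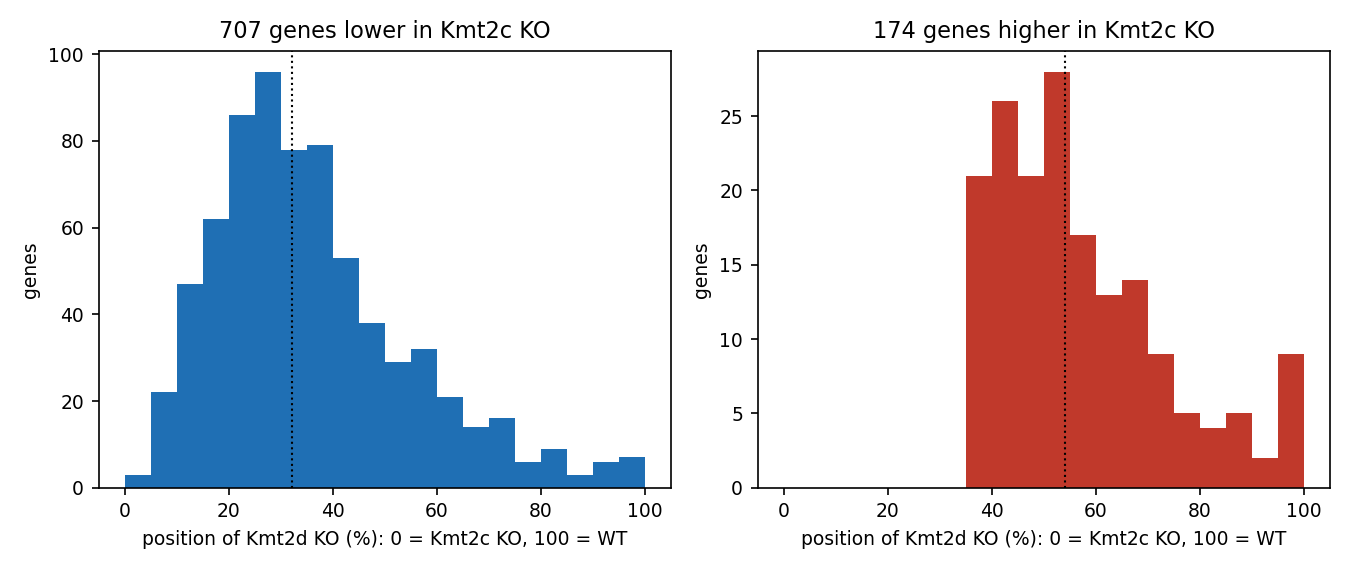
The histograms show the position of *Kmt2d* KO, on mean CPM, between *Kmt2c* KO (0%) and WT (100%), in bins of 5%, for the called genes whose WT mean lay beyond *Kmt2d* KO (707 lower genes on the left, 174 higher genes on the right). The dotted lines mark the medians of 32.1% and 54.1%. On this scale most of the lower genes sit left of 50%, which does not hold on the log2 scale, and none of the higher genes sits under 34.0%, the lowest position that the fold threshold allows.

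The counts did not check the knockouts. *Kmt2c* stood at 92.4, 100.5 and 90.5 CPM in *Kmt2c* KO, at 99.6, 119 and 100.8 CPM in *Kmt2d* KO and at 59.5, 65.9 and 56.2 CPM in WT. *Kmt2d* stood at 166, 146 and 109 CPM in *Kmt2c* KO, at 98.9, 154 and 103 CPM in *Kmt2d* KO and at 117, 101 and 85.4 CPM in WT. The libraries of the 2 knockouts overlapped for both genes, with log2 fold changes of -0.17 ± 0.11 (SE) and 0.24 ± 0.16 and adjusted p-values of 0.38 and 0.42. Small edits in exon 1 need not lower the number of reads over a gene, so these values say nothing about the labels. In the study's own immunoblots, the knockout cells of both lines had less of the protein. *Kdm6a* did not pass the test either (log2 fold change -0.09 ± 0.12, adjusted p = 0.68). None of the 19 tested subunits of the KMT2 complexes was called, beside 7.34% of all genes tested, so little can be read from so short a list.

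**Figure D3:**
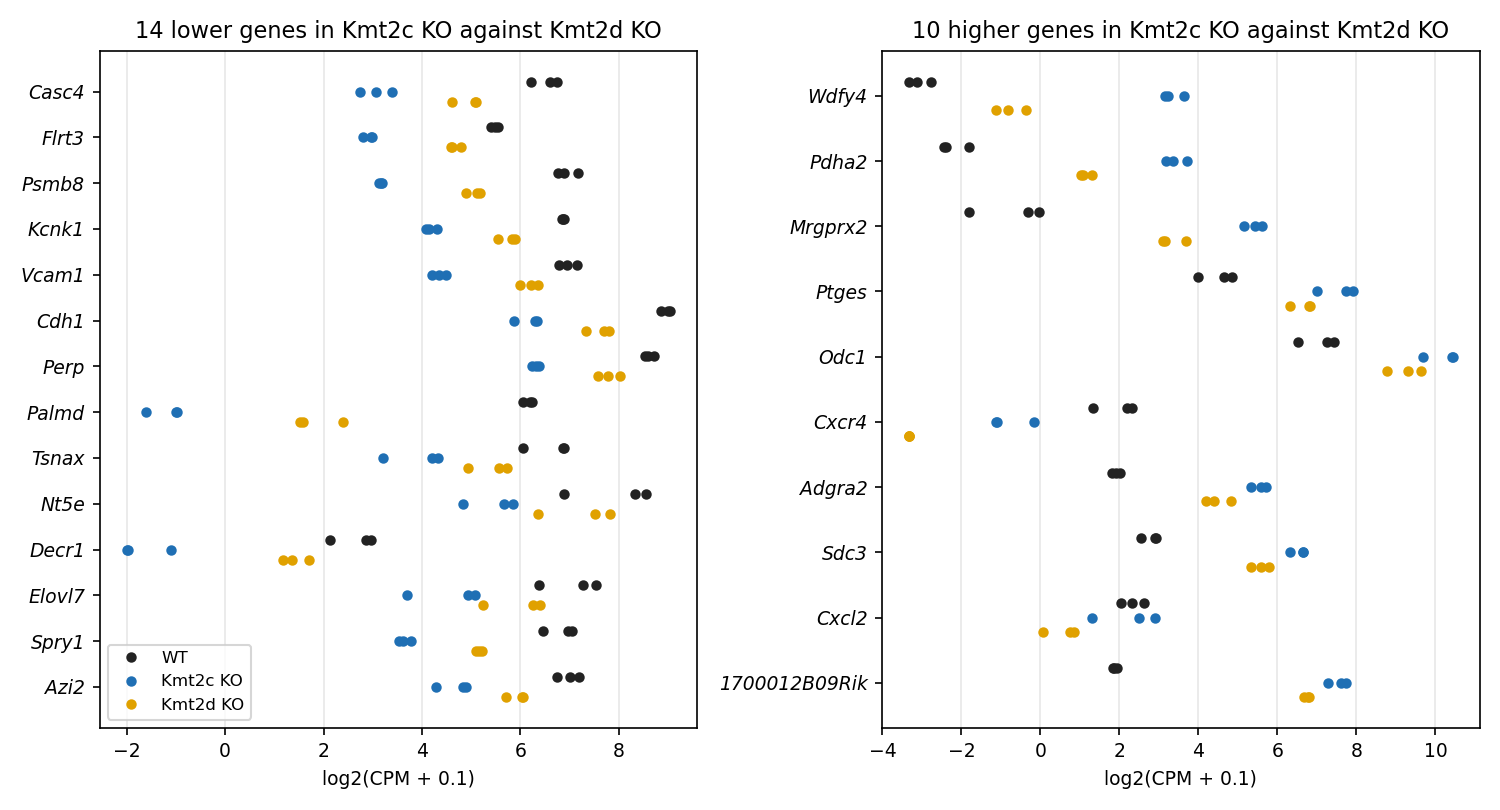
Each point is the level of a gene in 1 library, as log2(CPM + 0.1), for 14 of the 15 lower (left) and the 10 higher (right) genes with the smallest p-values among those whose knockout libraries did not overlap (WT black, *Kmt2c* KO blue, *Kmt2d* KO yellow, 3 libraries each). In all 14 lower genes shown the mean of *Kmt2d* KO lies between those of *Kmt2c* KO and WT, and its points overlap with WT for *Nt5e* and *Elovl7* only. Among the higher genes, *Cxcr4* is highest in WT, and the WT points of *Cxcl2* lie within the range of *Kmt2c* KO.

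The gene list with the largest share of members lower in *Kmt2c* KO was that of epithelial cells. Of 43 tested genes of epithelial adhesion and keratins, 25 were lower, 0 were higher and 42 had a lower mean. Their median log2 fold change was -0.83, against 0.01 over all genes tested and 5.76% of genes lower. Against WT, the medians were -2.17 for *Kmt2c* KO and -1.24 for *Kmt2d* KO. *Cdh1* (chr8:109127251-109194146, mm9) encodes E-cadherin, the adhesion molecule of epithelial junctions. It stood at 80.5, 78.8 and 58.0 CPM in *Kmt2c* KO, at 222, 206 and 162 CPM in *Kmt2d* KO and at 514, 526 and 462 CPM in WT. The 3 groups did not overlap, and *Cdh1* was 2.72-fold lower in *Kmt2c* KO (log2 fold change -1.44 ± 0.12, adjusted p = 0.00019).

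Other junction genes followed the same order. *Ocln*, which encodes the tight junction protein occludin, stood at 15.9, 18 and 10.6 CPM in *Kmt2c* KO, at 39.4, 38.7 and 32.1 CPM in *Kmt2d* KO and at 87.5, 98.3 and 71.5 CPM in WT (-1.33 ± 0.13, adjusted p = 0.00031). *Perp*, a target of p53 that encodes a desmosome protein, stood at 80.0, 82.6 and 75.3 CPM in *Kmt2c* KO, at 261, 220 and 191 CPM in *Kmt2d* KO and at 386, 418 and 370 CPM in WT (-1.49 ± 0.12, adjusted p = 0.0002). *Itgb6*, the beta subunit of an epithelial integrin, was low in all knockout libraries, at 0.564 to 1.13 CPM in *Kmt2c* KO against 2.32 to 3.51 CPM in *Kmt2d* KO and 15.5 to 17.0 CPM in WT (-1.87 ± 0.26, adjusted p = 0.0019). In each of these genes every *Kmt2c* KO library was below every *Kmt2d* KO library, and every *Kmt2d* KO library was below every WT library.

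*Esrp1*, a splicing factor of epithelial cells, and *Krt18*, a keratin of simple epithelia, differed by 2.27-fold and 1.93-fold. *Esrp1* stood at 46.6, 47.8 and 19.5 CPM in *Kmt2c* KO against 109, 91.6 and 51.7 CPM in *Kmt2d* KO, so that replicate 3 was the lowest of each group. *Krt18* stood at 153, 120 and 308 CPM against 248, 247 and 652 CPM, with replicate 3 the highest of each group and the groups overlapping. With no replicate block neither gene was called (adjusted p = 0.32 and 0.53), and the list count was 9. Leaving out *Kmt2c* KO replicate 2 lowered the list count to 16, and replicates 1 and 2 alone gave 25 lower and 1 higher.

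In RNA from whole cultures, fewer cells with an epithelial profile and less RNA per cell cannot be told apart. The epithelial markers *Epcam*, *Krt8* and *Cldn4* were present in each group, with means of 163, 144 and 85.2 CPM in *Kmt2c* KO, of 234, 227 and 148 CPM in *Kmt2d* KO and of 598, 450 and 465 CPM in WT. Of the defining markers of other cell types, *Ptprc*, the leukocyte marker CD45, reached at most 0.108 CPM in any library and *Emcn*, *Hba-a1* and *Hbb-b1* were at 0 in all 9. The summed level of 27 such markers was 24.1 to 90.5 CPM per library, most of it *Cd68*, with 16 to 19 markers at 0. The sum was 28.3 to 78.7 CPM over the libraries of *Kmt2c* KO, 32.7 to 90.5 CPM over those of *Kmt2d* KO and 24.1 to 41.6 CPM over WT. Only 6 of these markers passed the filter on low counts and 0 were called.

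Mesenchymal genes differed less between the knockouts than epithelial genes did. Of 23 tested mesenchymal markers and factors of the epithelial-mesenchymal transition, 2 were higher and 1 was lower in *Kmt2c* KO (median 0.16). A lower mean in *Kmt2c* KO was found for 9 of the 23. The shares over all genes tested were 1.59% higher and 5.76% lower. Against WT, the medians were 2.96 for *Kmt2c* KO and 2.49 for *Kmt2d* KO. *Zeb1*, a repressor of epithelial genes, had a mean of 77.1 CPM in *Kmt2c* KO, 55.3 CPM in *Kmt2d* KO and 5.26 CPM in WT, and *Prrx1* 637, 427 and 20.5 CPM. Neither *Zeb1* nor *Prrx1* was called between the knockouts. *Foxc2*, the lower gene, a transcription factor of mesenchyme, stood at 4.19, 4.08 and 3.13 CPM in *Kmt2c* KO, at 6.76, 9.02 and 10.0 CPM in *Kmt2d* KO and at 20.3 to 24.2 CPM in WT (-1.16 ± 0.20, adjusted p = 0.0063). *Foxc2* was thus lowest in *Kmt2c* KO and highest in WT, while *Zeb1* and *Prrx1* were lowest in WT. The marker *Fn1* had the order of *Foxc2*, with means of 1161 CPM in *Kmt2c* KO, 1549 CPM in *Kmt2d* KO and 4531 CPM in WT. The markers *Vim*, *Cdh2*, *Snai2* and *Twist1* were lowest in WT. Like *Zeb1* and *Prrx1*, they had a higher mean in *Kmt2c* KO than in *Kmt2d* KO. The means were 3422 against 2882 CPM, 212 against 163 CPM, 44.5 against 40.3 CPM and 92.8 against 84.1 CPM. The 2 higher members of the list were not called when *Kmt2c* KO replicate 1 or *Kmt2d* KO replicate 1 was left out or with no replicate block, 1 was called without replicate 2 of either knockout, and 4 were higher without *Kmt2c* KO replicate 3. The lower members numbered 2 without WT replicate 3 or *Kmt2c* KO replicate 3.

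The promoters of the called genes were searched for CAGGTG, on both strands, an E-box that repressors of the Zeb and Snail families bind. RefSeq promoters of 300 bases (250 before to 50 after the start site, GRCm38.p6) were matched by symbol for 10353 of the 13675 genes tested. The letters were found in 31.7% of the 580 matched promoters of lower genes and in 16.4% of the 152 of higher genes. They were found in 17.6% of those of all genes tested and in 20.03% of the 27025 promoters searched. The search left out 1 chromosome and symbols listed more than once. Of the 24 matched promoters of the epithelial list, 15 (62.5%) held them. These shares were not tested, and a match is not evidence of binding. *Cdh1* had no matched promoter. Of the called members with a matched promoter, *Krt14*, *Ocln*, *Dsp*, *Jup*, *Spint1*, *Marveld2* and *Itgb6* held none before the start site. *Krt18*, *Tjp3*, *F11r* and *Elf3* held 1 each. The member with the most matches there was *Spint2*, which encodes an inhibitor of epithelial serine proteases. The 250 bases before its start site (chr7:29281978-29282227, GRCm38.p6, minus strand) are shown with the 3 matches in capitals, which begin 74, 55 and 9 bases before the start.
Spint2: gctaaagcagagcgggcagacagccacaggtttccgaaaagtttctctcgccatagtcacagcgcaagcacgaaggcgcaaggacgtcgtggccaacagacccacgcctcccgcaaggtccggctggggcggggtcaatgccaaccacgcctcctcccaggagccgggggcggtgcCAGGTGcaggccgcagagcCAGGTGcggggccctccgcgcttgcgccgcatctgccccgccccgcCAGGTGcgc
*Spint2* stood at 85.1, 72.3 and 55.3 CPM in *Kmt2c* KO, at 157, 187 and 159 CPM in *Kmt2d* KO and at 276 to 361 CPM in WT (-1.25 ± 0.17, adjusted p = 0.0017). The groups did not overlap.

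Of 23 tested mammary lineage factors, 7 were lower and 0 higher (median -0.19), against 5.76% lower and 1.59% higher over all genes tested, and of the 7 *Krt18* is shared with the epithelial list. *Cd24a*, a surface marker of luminal mammary cells, stood at 74.6, 76.2 and 67.1 CPM in *Kmt2c* KO, at 158, 136 and 112 CPM in *Kmt2d* KO and at 323 to 492 CPM in WT (-0.89 ± 0.13, adjusted p = 0.0022). *Esr1*, which encodes the oestrogen receptor alpha, stood at 3.35, 2.70 and 2.54 CPM, at 12.5, 10.3 and 3.85 CPM and at 17.5, 18.3 and 7.39 CPM in the same order (-1.50 ± 0.26, adjusted p = 0.0068). The knockout libraries did not overlap for either gene, but *Esr1* was not called without *Kmt2d* KO replicate 1 (-1.31, adjusted p = 0.10) or with no replicate block (0.21), and 4 members of the list were lower without that library and 1 with no replicate block. Of 13 tested Hox genes, 3 were lower and 0 higher (median -0.58), with 5 lower without WT replicate 3 and 1 with no block. *Hoxa10*, a homeobox gene of the posterior body axis, stood at 9.66, 9.16 and 9.73 CPM in *Kmt2c* KO, at 21.1, 20.6 and 30.5 CPM in *Kmt2d* KO and at 51.2, 53.8 and 90.0 CPM in WT (-1.30 ± 0.16, adjusted p = 0.00092).

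Of 33 tested interferon-response genes, 7 were lower in *Kmt2c* KO, 0 were higher and 28 had a lower mean (median -0.42), so most members did not pass the test. Over all genes tested, 5.76% were lower. With no replicate block 4 were lower, and with replicates 1 and 2 alone 7. *Psmb8* (chr17:34334666-34338399) encodes a subunit of the immunoproteasome, which cuts peptides for MHC class I. It stood at 9.07, 8.66 and 8.84 CPM in *Kmt2c* KO, at 34.6, 35.9 and 29.5 CPM in *Kmt2d* KO and at 117, 108 and 144 CPM in WT. *Psmb8* was 3.77-fold lower in *Kmt2c* KO (-1.91 ± 0.15, adjusted p = 0.00019), and the 3 groups did not overlap. *Psmb9*, a second subunit of the immunoproteasome, was the other called member among 16 genes of MHC class I and antigen processing, 2 of them lower and 0 higher (-1.20 ± 0.21, adjusted p = 0.0067; with no replicate block 0.12). Its level was 2.26 to 3.0 CPM in *Kmt2c* KO, 4.27 to 7.01 CPM in *Kmt2d* KO and 13.9 to 25.4 CPM in WT.

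A sensor, effectors and a regulator of the interferon response were among the lower genes. *Ifih1*, which encodes the double-stranded RNA sensor MDA5, stood at 4.04, 5.01 and 2.28 CPM in *Kmt2c* KO against 14.2, 12.3 and 8.71 CPM in *Kmt2d* KO (-1.66 ± 0.21, adjusted p = 0.00091). *Oasl2*, a relative of the oligoadenylate synthetases, stood at 1.92, 1.10 and 1.64 CPM against 4.41, 4.64 and 4.53 CPM (-1.55 ± 0.22, adjusted p = 0.0018). WT was at 37.4 to 56.5 CPM for *Oasl2* and 17.6 to 23.6 CPM for *Ifih1*, above all knockout libraries. *Usp18*, a protease that removes ISG15 and restrains interferon signalling, was 2.01-fold lower in *Kmt2c* KO (-1.01 ± 0.17, adjusted p = 0.0046; with no replicate block 0.19). The adaptor *Azi2*, which acts upstream of interferon induction, was 2.39-fold lower (-1.26 ± 0.12, adjusted p = 0.00031).

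The core of the interferon-stimulated response element, GAAA, any 2 bases and GAAA on either strand, was present in 15 of 24 matched promoters of the interferon list (62.5%), in 3.07% of those of all genes tested and in 3.62% of those of the lower genes. *Ifit1*, an effector that binds viral RNA, is shown as an example of a called member whose promoter holds 2 matches. They are in capitals in the 250 bases before the start site (chr19:34640639-34640888, GRCm38.p6, plus strand) and begin 104 and 85 bases before it.
Ifit1: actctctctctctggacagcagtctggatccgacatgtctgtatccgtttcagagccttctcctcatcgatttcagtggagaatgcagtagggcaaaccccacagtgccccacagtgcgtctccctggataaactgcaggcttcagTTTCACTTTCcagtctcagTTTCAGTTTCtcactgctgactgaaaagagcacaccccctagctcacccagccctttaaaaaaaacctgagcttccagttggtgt
*Ifit1* stood at 0.876, 0.866 and 1.33 CPM in *Kmt2c* KO, at 3.25, 2.85 and 2.67 CPM in *Kmt2d* KO and at 13.4, 15.8 and 26.6 CPM in WT (-1.57 ± 0.26, adjusted p = 0.0045). Of the other called members with a matched promoter, *Oas1a* held 2 matches in the 250 bases before the start site and *Oas3* held 1. *Ifi44*, *Ifih1* and *Oasl2* held none there.

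Chemokine and cytokine genes were called in both directions. Of 27 tested chemokines and cytokines, 3 were lower and 2 higher (median 0.27), 0 with no replicate block. The shares over all genes tested were 5.76% lower and 1.59% higher. *Il6*, which encodes an inflammatory cytokine, was above WT in both knockouts, at 1.58, 2.26 and 0.768 CPM in *Kmt2c* KO against 9.30, 12.1 and 4.42 CPM in *Kmt2d* KO, with at most 0.329 CPM in WT (-2.51 ± 0.36, adjusted p = 0.002; with no replicate block 0.24). *Cxcl2*, a chemokine for neutrophils, stood at 5.54, 7.31 and 2.36 CPM in *Kmt2c* KO against 1.58, 1.69 and 0.943 CPM in *Kmt2d* KO (1.78 ± 0.27, adjusted p = 0.0028; with no replicate block 0.12). WT was at 4.03 to 6.07 CPM for *Cxcl2*, within the range of *Kmt2c* KO and above *Kmt2d* KO. *Vcam1*, an adhesion molecule for leukocytes that is not a member of the list, stood at 18.4, 20.3 and 22.2 CPM in *Kmt2c* KO, at 81.6, 74.0 and 63.3 CPM in *Kmt2d* KO and at 123, 142 and 110 CPM in WT (-1.84 ± 0.15, adjusted p = 0.00019). The groups of *Vcam1* did not overlap, and it was 3.58-fold lower in *Kmt2c* KO. The counts of the chemokine and cytokine list varied with the libraries: 1 gene was lower without *Kmt2c* KO replicate 2, *Kmt2d* KO replicate 1 or replicate 3, and the higher genes numbered 1 without WT replicate 1, *Kmt2c* KO replicate 1, *Kmt2c* KO replicate 2 or *Kmt2d* KO replicate 1, 4 without *Kmt2c* KO replicate 3 and 5 without WT replicate 3 or *Kmt2d* KO replicate 3.

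*Cxcr4* (chr1:130484776-130488870), the receptor of the chemokine CXCL12, had 92 reads in the *Kmt2c* KO libraries, 0 in the *Kmt2d* KO libraries and 806 in WT. Its level was 0.791, 0.366 and 0.359 CPM in *Kmt2c* KO and 2.41 to 4.87 CPM in WT. Against a floor of 3 reads over the *Kmt2d* KO group, *Cxcr4* was at least 23-fold higher in *Kmt2c* KO (adjusted p = 0.0018) and at least 179-fold higher in WT.

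Of 46 tested axon guidance genes, 10 were lower and 2 higher, and of 30 Wnt genes 6 were lower and 0 higher, with medians of -0.01 and -0.26, beside 5.76% lower and 1.59% higher over all genes tested. With no replicate block the lower genes numbered 5 and 2. *Efnb2*, a membrane-bound ephrin ligand, stood at 48.3, 45.1 and 37.9 CPM in *Kmt2c* KO, at 100.2, 104 and 78.2 CPM in *Kmt2d* KO and at 199 to 235 CPM in WT (-1.10 ± 0.11, adjusted p = 0.00031). *Sema3d*, a secreted semaphorin, stood at 0.141, 0.500 and 0.205 CPM in *Kmt2c* KO, at 3.99, 3.41 and 2.83 CPM in *Kmt2d* KO and at 6.02, 6.55 and 3.50 CPM in WT (-3.68 ± 0.39, adjusted p = 0.00038). Here *Kmt2d* KO was not called against WT (adjusted p = 0.15), while *Kmt2c* KO was 12.8-fold below *Kmt2d* KO. *Epha1* and *Epha4*, receptors for ephrins, were 2.70-fold and 2.44-fold lower (adjusted p = 0.00088 and 0.00089). *Epha4* was not called with no replicate block (adjusted p = 0.31). Without *Kmt2c* KO replicate 2 the lower axon guidance genes numbered 6, and the higher ones numbered 1 without *Kmt2c* KO replicate 1, *Kmt2d* KO replicate 1 or replicate 2 and 4 without WT replicate 2, WT replicate 3, *Kmt2c* KO replicate 3 or *Kmt2d* KO replicate 3.

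The 4 lower Wnt genes with the smallest p-values, of 6, encode a secreted inhibitor, receptors and a ligand. *Sfrp1*, which binds Wnt ligands outside the cell, stood at 8.04, 7.59 and 11 CPM in *Kmt2c* KO, at 18.2, 19.3 and 31.4 CPM in *Kmt2d* KO and at 50.1 to 72.1 CPM in WT (-1.34 ± 0.13, adjusted p = 0.00031). The receptor gene *Fzd6* stood at 45.8, 42.3 and 30.3 CPM, 115, 115 and 101.4 CPM and 205 to 236 CPM in the same order (-1.49 ± 0.15, adjusted p = 0.00031). *Fzd7*, a second receptor, and *Wnt10a*, a ligand, were 1.75-fold and 1.98-fold lower (adjusted p = 0.0028 and 0.0086), and neither was called with no replicate block (0.20 and 0.25). In all 4 genes every *Kmt2c* KO library was below every *Kmt2d* KO library.

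Growth factor signalling genes divided. Of 34 tested receptor tyrosine kinases and ligands, 4 were lower and 3 higher (median 0.06), 1 and 0 with no replicate block. The shares over all genes tested were 5.76% lower and 1.59% higher. *Egfr*, the receptor of epidermal growth factor, stood at 0.311, 0.167 and 0.256 CPM in *Kmt2c* KO, at 2.69, 2.75 and 0.836 CPM in *Kmt2d* KO and at 2.25 to 3.20 CPM in WT, so that *Kmt2d* KO replicates 1 and 2 were at the WT level (-3.02 ± 0.45, adjusted p = 0.0028). Of its ligands, *Areg* was lower in *Kmt2c* KO, at 16.3 to 22.0 CPM against 24.7 to 40.9 CPM (-0.84 ± 0.15, adjusted p = 0.0069), and *Btc* was higher, at 147, 172 and 38.3 CPM against 77.2, 67.0 and 27.8 CPM (0.92 ± 0.17, adjusted p = 0.0079). Both ligands were above WT in both knockouts, and neither was called with no replicate block (0.24 and 0.60). Without *Kmt2c* KO replicate 1, *Kmt2c* KO replicate 2 or *Kmt2d* KO replicate 1 the list had 2 lower genes and 1 higher, and without *Kmt2d* KO replicate 2 it had 1 higher.

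*Spry1*, an inhibitor of signalling by these receptors, stood at 13.6, 12.1 and 11.4 CPM in *Kmt2c* KO, at 34.1, 37.4 and 35.5 CPM in *Kmt2d* KO and at 87.8 to 132 CPM in WT (-1.53 ± 0.15, adjusted p = 0.00031). *Flrt3*, a membrane protein that binds fibroblast growth factor receptors and guidance receptors, stood at 7.74, 6.84 and 7.84 CPM, at 27.6, 24.4 and 23.9 CPM and at 42.1 to 46.6 CPM (-1.76 ± 0.14, adjusted p = 0.00019). *Nt5e*, the ecto-enzyme CD73 that makes adenosine, stood at 50.9, 57.1 and 28.5 CPM, at 226, 183 and 81.4 CPM and at 322, 375 and 118 CPM (-1.78 ± 0.16, adjusted p = 0.00031; with no replicate block 0.18). Replicate 3 was the lowest of each genotype for *Nt5e*, while the *Kmt2c* KO libraries stayed below all *Kmt2d* KO libraries.

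The remaining genes with the smallest p-values belong to no common list. *Casc4* (chr2:121692706-121761956), which encodes a Golgi membrane protein, had the smallest p-value of all. It stood at 8.22, 10.3 and 6.56 CPM in *Kmt2c* KO, at 34.3, 33.7 and 24.3 CPM in *Kmt2d* KO and at 97.0, 108 and 74.1 CPM in WT, and was 3.70-fold lower (-1.89 ± 0.13, adjusted p = 0.00018). *Kcnk1*, a potassium channel of the two-pore family, stood at 19.7, 17.6 and 16.8 CPM, at 59.5, 57.0 and 46.7 CPM and at 115 to 118 CPM (-1.59 ± 0.13, adjusted p = 0.00019). For both genes the knockout libraries did not overlap and WT was highest.

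*Palmd*, which encodes the cytosolic protein palmdelphin, was nearly lost from *Kmt2c* KO, at 0.226, 0.400 and 0.410 CPM against 2.89, 2.77 and 5.17 CPM in *Kmt2d* KO and 66.3 to 74.8 CPM in WT (-3.37 ± 0.28, adjusted p = 0.0002). *Decr1*, an enzyme of the mitochondrial oxidation of unsaturated fatty acids, stood at 0.367, 0.150 and 0.154 CPM against 3.15, 2.45 and 2.16 CPM and 4.26 to 7.65 CPM in WT (-3.55 ± 0.33, adjusted p = 0.00031). These were the largest folds among the 15 lower genes with the smallest p-values, 10.3-fold and 11.7-fold. *Elovl7*, which elongates fatty acids, and *Tsnax*, which binds translin, were 2.62-fold and 2.82-fold lower (adjusted p = 0.00031 and 0.0003). *Elovl7*, *Tsnax* and *Nt5e* were the 3 of the 15 not called with no replicate block (adjusted p = 0.28 for *Elovl7* and 0.13 for *Tsnax*), and all 15 were called when any 1 library was left out.

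The 3 genes that ranked first by p-value among the higher ones were close to silent in WT. *Wdfy4* (chr14:33772733-33998694), which encodes a protein used by dendritic cells in cross-presentation, stood at 9.32, 8.88 and 12.3 CPM in *Kmt2c* KO against 0.461, 0.361 and 0.674 CPM in *Kmt2d* KO, with 3 reads in all in WT. It was 20.7-fold higher in *Kmt2c* KO (4.37 ± 0.32, adjusted p = 0.00019). *Pdha2*, a testis form of a pyruvate dehydrogenase subunit, stood at 9.01, 10.1 and 13 CPM, at 2.37, 2.03 and 1.94 CPM and at 0.0848 to 0.185 CPM in WT (2.31 ± 0.25, adjusted p = 0.00044). *Mrgprx2*, a receptor of the Mas-related family, stood at 42.7, 48.9 and 35.3 CPM, at 8.86, 12.7 and 8.52 CPM and at 0.185 to 0.883 CPM (2.09 ± 0.23, adjusted p = 0.00044). In these 3 genes all *Kmt2c* KO libraries were above all *Kmt2d* KO libraries, which were above all WT libraries.

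Enzymes and surface proteins with higher levels showed smaller differences. *Odc1*, the first enzyme of polyamine synthesis, stood at 1374, 1384 and 827 CPM in *Kmt2c* KO, at 794, 631 and 435 CPM in *Kmt2d* KO and at 91.9 to 173 CPM in WT (0.94 ± 0.13, adjusted p = 0.0017). *Ptges*, which makes prostaglandin E2, stood at 243, 212 and 128 CPM, at 111, 113 and 79.1 CPM and at 15.7 to 28.9 CPM (0.91 ± 0.12, adjusted p = 0.0015). Neither gene was called with no replicate block (0.30 and 0.26). *Sdc3*, a heparan sulphate proteoglycan, and *Adgra2*, an adhesion receptor of the Wnt7 pathway, were higher by 0.97 ± 0.14 and 1.07 ± 0.16 on the log2 scale (adjusted p = 0.0027 and 0.0025). *Adgra2* stood at 40.2 to 52.6 CPM in *Kmt2c* KO, 18.1 to 28.5 CPM in *Kmt2d* KO and 3.43 to 3.94 CPM in WT. *S100a14*, 1 higher gene among 12 S100 proteins, stood at 19.9, 18.9 and 18.5 CPM in *Kmt2c* KO, at 6.34, 7.19 and 9.78 CPM in *Kmt2d* KO and at 6.25 to 8.15 CPM in WT, so that only the *Kmt2c* KO libraries were away from WT (1.31 ± 0.20, adjusted p = 0.0029). Of the 10 higher genes ranked first by p-value, 7 were called with no replicate block and 10 when any 1 library was left out. The count of higher S100 genes, 1 of 12 (8.33%) beside 1.59% of all genes tested, was 2 without *Kmt2c* KO replicate 3.

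The gene list with the most higher members was DNA replication. Of 39 tested genes, 9 were higher in *Kmt2c* KO, 0 were lower and 3 had a lower mean (median 0.40). The shares over all genes tested were 1.59% higher and 5.76% lower. Against WT, the medians were 0.08 for *Kmt2c* KO and -0.26 for *Kmt2d* KO. *Mcm3*, a subunit of the replicative helicase, stood at 83.8, 73.0 and 275 CPM in *Kmt2c* KO, at 37.6, 41.7 and 241 CPM in *Kmt2d* KO and at 82.3, 75.8 and 320 CPM in WT (0.71 ± 0.16, adjusted p = 0.029). Replicate 3 was the highest of each genotype, and the difference between the knockouts was larger in replicates 1 and 2. With replicates 1 and 2 only, 23 of the 39 genes were higher, and leaving out replicate 3 of *Kmt2c* KO or of *Kmt2d* KO gave 17 and 18. The count was 0 with no replicate block, 0 without *Kmt2c* KO replicate 1, *Kmt2c* KO replicate 2 or *Kmt2d* KO replicate 1, and 1 without *Kmt2d* KO replicate 2. *Mcm3* was not called in any of these 5 fits either (adjusted p of 0.14 to 0.21 without single libraries and 0.93 with no block).

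Of 37 tested mitosis genes, 0 were lower and 3 had a lower mean (median 0.31). Only 1 gene (2.70%) was higher, against 1.59% of all genes tested. It was *Foxm1*, which encodes a transcription factor of the G2 phase, at 40.9, 35.4 and 94.8 CPM in *Kmt2c* KO, at 18.6, 20.4 and 59.1 CPM in *Kmt2d* KO and at 10.2, 9.66 and 61.0 CPM in WT (0.89 ± 0.23, adjusted p = 0.050). *Foxm1* was not called without any 1 of *Kmt2c* KO replicates 1 and 2 and the 3 *Kmt2d* KO replicates (log2 fold changes of 0.67, 0.82, 0.88, 1.04 and 0.77), nor with no replicate block (0.80). The higher mitosis genes numbered 7 without *Kmt2c* KO replicate 3 and 2 without WT replicate 3.

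A difference within each replicate number with a large shift between numbers was also seen in genes of the stress response. *Atf3*, a transcription factor induced by stress, stood at 74.8, 66.9 and 3.13 CPM in *Kmt2c* KO, at 168, 164 and 10.4 CPM in *Kmt2d* KO and at 205, 190 and 22.8 CPM in WT. Replicate 3 was far below the others in each genotype, the knockout groups overlapped, and *Atf3* was lower in *Kmt2c* KO with the block (-1.33 ± 0.23, adjusted p = 0.0062) and not without it (0.81). Of 37 genes of the amino acid and ATF4 response, 5 were lower, 0 were higher and 30 had a lower mean (median -0.19), with 0 lower with no replicate block or without *Kmt2d* KO replicate 1, 2 when *Kmt2c* KO replicate 2 was left out and 3 when *Kmt2d* KO replicate 2 was. Of 38 AP-1 and immediate early genes, 4 were lower and 2 higher (median 0.09), beside 5.76% and 1.59% of all genes tested. The lower genes numbered 1 with no block and 2 without *Kmt2c* KO replicate 2 or *Kmt2d* KO replicate 1, and the higher genes numbered 0 with no block or without *Kmt2c* KO replicate 1, *Kmt2c* KO replicate 2 or *Kmt2d* KO replicate 1.

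Matrix proteases and inhibitors were called in both directions, and the few collagen and cross-linking genes called were all higher. Of 27 matrix proteases and inhibitors, 4 were lower and 4 higher (median 0.17). Of 30 collagens and cross-linking enzymes, 0 were lower and 3 higher (median -0.05). The shares over all genes tested were 5.76% lower and 1.59% higher. *Mmp3*, which encodes the protease stromelysin, stood at 131, 140 and 55.7 CPM in *Kmt2c* KO, at 69.0, 60.4 and 61.0 CPM in *Kmt2d* KO and at 25.2, 26.1 and 14.3 CPM in WT. *Kmt2c* KO replicate 3 was the lowest of the 6 knockout libraries, the groups overlapped, and the adjusted p was 0.092 (0.66 ± 0.21). *Mmp3* was not called with no replicate block (0.45) or with no filter on low counts (0.10), nor without WT replicate 1, WT replicate 2, *Kmt2c* KO replicate 1, *Kmt2c* KO replicate 2, *Kmt2d* KO replicate 1 or replicate 2, with log2 fold changes of 0.43 to 0.67. The higher proteases numbered 0 with no replicate block or without any 1 of *Kmt2c* KO replicates 1 and 2 and *Kmt2d* KO replicates 1 and 2, 2 without WT replicate 1 or *Kmt2d* KO replicate 3 and 7 without WT replicate 3. The lower ones numbered 1 with no block or without *Kmt2c* KO replicate 1 and 2 without *Kmt2c* KO replicate 2, *Kmt2d* KO replicate 1 or replicate 2. The higher collagen genes numbered 0 with no block or without *Kmt2c* KO replicate 1, *Kmt2c* KO replicate 2, *Kmt2d* KO replicate 1 or replicate 2.

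**Figure D4:**
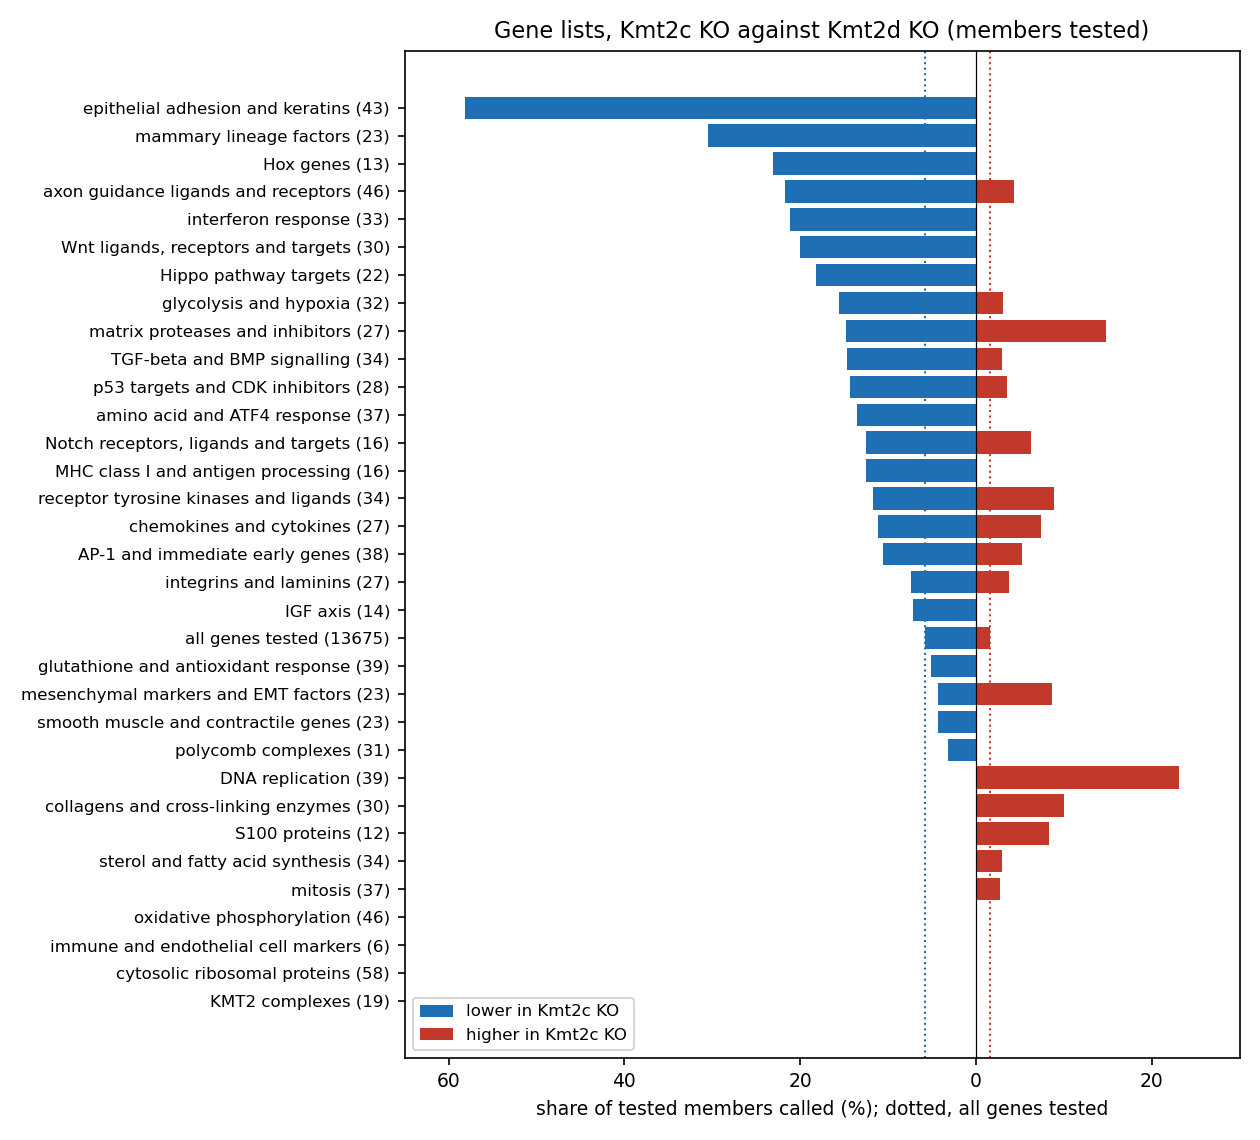
Bars give the share of the tested members of each gene list that were lower (blue, left) or higher (red, right) in *Kmt2c* KO than in *Kmt2d* KO, with the number of tested members in brackets and dotted lines at the shares over all genes tested, 5.76% and 1.59%. The epithelial list stands out on the left, with 25 of 43 members, and the DNA replication list has the longest bar on the right, with 9 of 39.

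The remaining lists are given by their counts alone, beside 5.76% lower and 1.59% higher over all genes tested. The lower and higher members were 2 and 1 of 27 integrins and laminins, 2 and 1 of 16 Notch genes, 5 and 1 of 34 genes of TGF-beta and BMP signalling, 4 and 0 of 22 Hippo pathway targets, 4 and 1 of 28 p53 targets and CDK inhibitors and 5 and 1 of 32 genes of glycolysis and hypoxia. They were 0 and 1 of 34 genes of sterol and fatty acid synthesis, 2 and 0 of 39 genes of glutathione and the antioxidant response, 1 and 0 of 31 polycomb genes, 1 and 0 of 23 smooth muscle genes and 1 and 0 of 14 genes of the IGF axis. From the sterol list to the IGF axis, the shares called were 2.94% to 7.14%, below the 7.34% of all genes tested. None of 46 genes of oxidative phosphorylation or of 58 cytosolic ribosomal proteins was called. Of the 39 counts above 0 over all lists and both directions, 36 moved by over 1.5 times when some single library was left out and 34 with no replicate block, so the smaller counts rest on these libraries.

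A total of 4 genes were called against WT in opposite directions in the 2 knockouts and also between them, and all 4 were below WT in *Kmt2c* KO and above it in *Kmt2d* KO. *Dach1*, a transcriptional corepressor, stood at 1.53, 1.72 and 0.615 CPM in *Kmt2c* KO, at 5.55, 8.17 and 5.53 CPM in *Kmt2d* KO and at 1.57, 2.14 and 3.52 CPM in WT (-2.29 ± 0.40 between the knockouts, adjusted p = 0.0066). *Wisp2*, a secreted protein of the CCN family, stood at 0.480, 0.383 and 0.179 CPM, at 2.47, 1.83 and 1.46 CPM and at 1.30, 1.11 and 0.417 CPM (-2.52 ± 0.41, adjusted p = 0.0045; with no replicate block 0.11). *Fam49a* and *Cdh13*, a cadherin without an intracellular domain, were below 2.30 CPM in all 9 libraries. *Cdh13* was not called without *Kmt2d* KO replicate 2 (-2.97, adjusted p = 0.11) or with no replicate block (0.43), and *Fam49a* not without *Kmt2c* KO replicate 2 (-4.08, 0.12) or *Kmt2d* KO replicate 2 (-3.96, 0.11) or with no block (0.15). These are small counts, with 10 reads of *Fam49a* and 26 of *Cdh13* over the *Kmt2c* KO libraries.

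The difference between the knockouts was then compared with the same difference in 168FARN, a second non-metastatic mouse mammary tumour line with 3 libraries of each knockout and 3 of WT cells that carried a control sgRNA. The test of the difference itself called 967 of 13859 genes (6.98%), 660 with a lower and 307 with a higher value in 67NR. In 168FARN, 632 genes (4.56%) were called between the knockouts, 265 lower and 367 higher in *Kmt2c* KO. Of the 1004 genes called in 67NR, 1001 were in this fit. Of these, 151, among them *Perp*, *Palmd*, *Tsnax*, *Decr1*, *Elovl7*, *Sfrp1* and *Fzd6*, were at 0 in all 6 knockout libraries of 168FARN, so they had no difference there to compare. Of the other 850 genes, 363 differed between the lines. These genes were chosen by their difference in 67NR, 1 side of this test, so nothing is read from their number. With no replicate block the test between lines called 81 genes. It called 617, 587, 531, 591 and 522 genes without 67NR *Kmt2c* KO replicate 1, 67NR *Kmt2d* KO replicate 1, 168FARN *Kmt2c* KO replicate 2, 168FARN *Kmt2d* KO replicate 1 and 168FARN *Kmt2d* KO replicate 2.

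Of the 113 genes named by rule, 47 differed between the lines, beside 6.98% of all genes tested. Most were named by their difference in 67NR or by this test itself, so nothing is read from these counts. By sign alone, 29 of the 47 were lower in *Kmt2c* KO in 67NR with a fold change above 0 in 168FARN. Of the 47, 19 were also called in 168FARN, 16 of them with the opposite sign. The named interferon genes were among the 29. *Oasl2* had a mean of 10.5 ± 5.43 CPM (SD, n = 3) in *Kmt2c* KO and 1.82 ± 0.751 CPM (n = 3) in *Kmt2d* KO of 168FARN, a log2 fold change of 2.49 ± 0.25. *Usp18* and *Ifit1* were also higher in *Kmt2c* KO there (2.27 ± 0.22 and 1.64 ± 0.28), opposite to 67NR. *Psmb9* did so too, with 0.82 ± 0.25. The epithelial genes *Cdh1*, *Ocln*, *Krt18*, *Esrp1*, *Spint2* and *Itgb6* were not called in the test between lines. Their differences had wide errors and went in both directions. They were -0.31 ± 0.51 (SE) for *Ocln*, -0.91 ± 1.47 for *Cdh1*, -3.71 ± 2.08 for *Esrp1* and -5.21 ± 2.32 for *Spint2*. *Krt18* and *Itgb6* went the other way, with 2.15 ± 0.91 and 3.98 ± 1.62. In 168FARN the means of these genes were at most 0.40 CPM in either knockout. The values therefore do not show that the lines were alike.

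Single genes showed the largest differences between the lines. *Mrgprx2* was higher in *Kmt2c* KO in 67NR and lower in 168FARN, at 0.421 ± 0.151 CPM (SD, n = 3) against 38.7 ± 6.86 CPM (n = 3), with a difference between lines of 8.58 on the log2 scale. *Sorbs2*, an adaptor of actin and focal adhesions, was 3.08-fold lower in *Kmt2c* KO in 67NR, at 6.17 to 6.96 CPM against 17.6 to 24.7 CPM, and higher in 168FARN, at 7.20 ± 1.22 CPM against 2.99 ± 0.320 CPM (n = 3 each). *Gyg*, which starts glycogen synthesis, and *Pitpnc1*, a lipid transfer protein, had log2 fold changes of -1.29 and -0.91 in 67NR and of 0.71 and 2.31 in 168FARN. *Pitpnc1* was not called in 67NR with no replicate block (adjusted p = 0.26). *Gm364* did not pass the test between the knockouts in 67NR (-0.16 ± 0.37) and was lower in *Kmt2c* KO in 168FARN, at 0.441 ± 0.0215 CPM against 79.8 ± 38.9 CPM. *Flrt3* was lower in *Kmt2c* KO in both lines, by more in 168FARN (-2.68 ± 0.15).

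**Figure D5:**
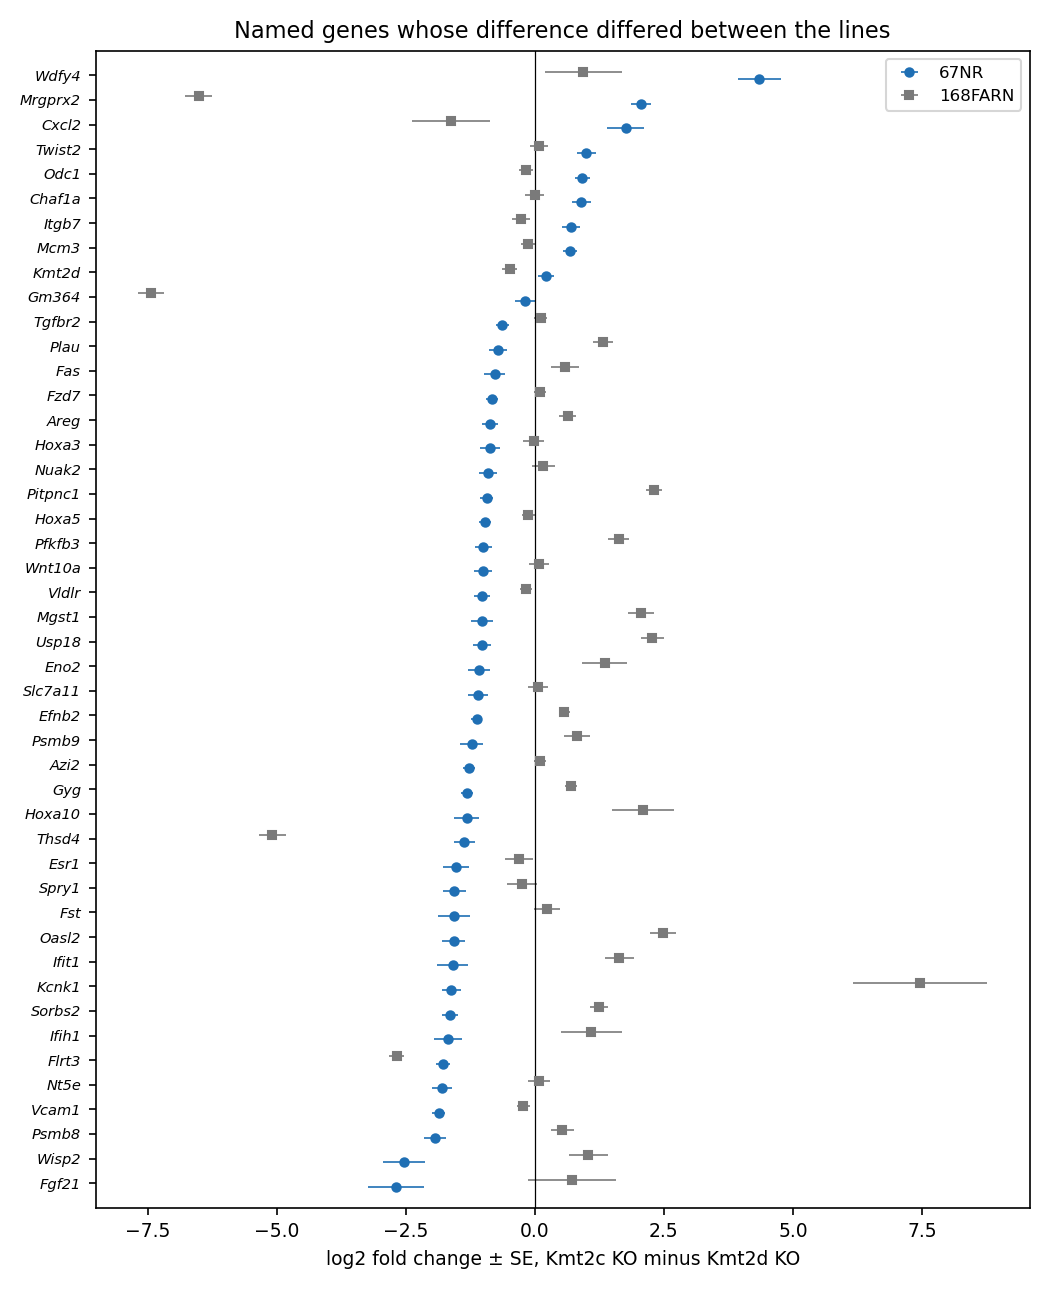
Points give the log2 fold change of *Kmt2c* KO against *Kmt2d* KO with its SE from the fit of 18 libraries, in 67NR (blue circles) and 168FARN (grey squares), for 46 of the 47 named genes that differed between the lines, ordered by their value in 67NR. Most genes below 0 in 67NR lie near or above 0 in 168FARN, and *Flrt3* and *Thsd4* lie below 0 in both.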

How the data were processed

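RNA-seq read counts were analysed for the 9 libraries of 67NR and, for the test between lines, the 9 of 168FARN. The authors deposited raw counts per gene symbol, which per the study's methods were made with STAR and the VIPER pipeline on mm9 from strand-specific libraries. How the counting treated strand is not given in the sources used here, so a gene and an overlapping gene on the other strand cannot be told apart. All columns were mapped by name (0 unmapped). The *Rn45s* row was left out of library sizes and tests. In the 67NR table, 27 row names were dates and are not named.

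CPM values, folds and tests were computed from the counts. Genes passing edgeR's filterByExpr (13675 of 24360 symbols) were fitted by robust quasi-likelihood with genotype and replicate number as terms and TMM scaling (R 4.3.3, edgeR 4.0.16, limma 3.58.1), with 4 residual degrees of freedom. The test between lines used 18 libraries, 13859 genes and 8 residual degrees of freedom. Genes were called at a Benjamini-Hochberg adjusted p under 0.1, over all genes tested, and a log2 fold change beyond 0.6 in size. The block was set with the comparison, and the study treated each time of collection as a batch in its heatmaps. As a check, deviations from the group means were correlated between *Kmt2c* KO and *Kmt2d* KO libraries with the same number (0.38, 0.43 and 0.72). Replicates 1 and 2 correlated across numbers as strongly (0.46 and 0.52). No pair of replicates agreed within sampling noise, so none was merged. The precision of a count of 0 was set by a floor of 3 reads over a group, which covers counting error only.

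Genes were named by rule: *Kmt2c*, *Kmt2d*, *Kdm6a* and *Mmp3*, the 15 lower and 10 higher called genes with the smallest p whose knockout libraries did not overlap, up to 6 genes called against WT in opposite directions, up to 4 called members of each of 32 gene lists, and the 3 genes with the smallest p in each direction of the test between lines. The rule gave 113 genes, of which 1 is counted but not reported here. The cell type markers, *Rmrp*, *Lars2* and called members in the promoter searches are named in addition. The comparison, the lists and the thresholds were chosen with earlier results of these data known, so a list is described by its counts and median and has no test. Each test over many genes was also run on simulated counts. These were drawn from the fitted model with the block, so they cannot speak to the choice of the block. Alternatives were the fit with no block, DESeq2 1.42.0 with and without the block, DESeq2 size factors, no filter on low counts, the 6 knockout libraries only, replicates 1 and 2 only, *Rn45s* kept, dispersions that were not robust, other thresholds and each library left out in turn. Guides were matched to mm9 and motifs to RefSeq promoters with Python 3.11.15.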

Additional observations from a re-analysis of the deposited data

Results flagged for a closer look

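A difference between the lines in the contrast of *Kmt2c* KO with *Kmt2d* KO, by the test of that difference, was found for 967 of 13859 genes. The values that follow are the log2 fold change in 67NR minus that in 168FARN, for the named genes that passed. They cover 46 of 47 genes.

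Among interferon and antigen-processing genes, all with a lower value in 67NR, the difference was -4.06 for *Oasl2*, -3.30 for *Usp18*, -3.23 for *Ifit1*, -2.78 for *Ifih1*, -2.47 for *Psmb8*, -2.04 for *Psmb9* and -1.37 for *Azi2*. *Ifih1* was at 0 in at least 1 knockout library of 168FARN.

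Genes of signalling and transcription with a lower value in 67NR were *Fgf21* at -3.41, *Hoxa10* at -3.42, *Fst* at -1.80, *Efnb2* at -1.69, *Areg* at -1.50, *Spry1* at -1.31, *Esr1* at -1.21, *Wnt10a* at -1.08, *Nuak2* at -1.07, *Fzd7* at -0.93, *Hoxa3* at -0.85, *Hoxa5* at -0.84 and *Tgfbr2* at -0.74. Of these, *Hoxa10* was at 0 in at least 1 knockout library of 168FARN.

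Genes of metabolism, transport, adhesion and the matrix with a lower value in 67NR were *Kcnk1* at -9.08, *Wisp2* at -3.57, *Pitpnc1* at -3.24, *Mgst1* at -3.09, *Sorbs2* at -2.90, *Pfkfb3* at -2.63, *Eno2* at -2.43, *Plau* at -2.03, *Gyg* at -2.02, *Nt5e* at -1.89, *Vcam1* at -1.64, *Fas* at -1.37, *Slc7a11* at -1.15 and *Vldlr* at -0.86. *Kcnk1* was at 0 in all 3 *Kmt2d* KO libraries of 168FARN, so its value depends on the prior count of the fit and is no bound.

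Genes with a higher value in 67NR were *Mrgprx2* at 8.58, *Gm364* at 7.25, *Thsd4* at 3.72, *Wdfy4* at 3.41, *Cxcl2* at 3.39, *Odc1* at 1.09, *Itgb7* at 0.97, *Twist2* at 0.91, *Chaf1a* at 0.90, *Flrt3* at 0.89, *Mcm3* at 0.81 and *Kmt2d* at 0.70. *Cxcl2* was at 0 in at least 1 knockout library of 168FARN. For *Flrt3*, *Thsd4* and *Gm364* the fold change was below 0 in both lines and further from 0 in 168FARN.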

How the results depend on the processing

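In the check on deviations from the group means, replicate 3 of *Kmt2c* KO paired with replicate 3 of *Kmt2d* KO (correlation 0.72). Replicates 1 and 2 did not pair by number (0.38 and 0.43 within numbers, 0.46 and 0.52 across them). The replicate block decided most calls. With no replicate block the genes called between the knockouts fell from 1004 to 193 (176 lower, 17 higher), with 1491 genes at an unadjusted p under 0.05 against 3155 with it. The difference between the lines fell from 967 to 81 genes. DESeq2 called 1211 genes with the block (874 lower, 337 higher) and 596 without it (470 lower, 126 higher). The 6 knockout libraries alone gave 1462 (971 lower, 491 higher), replicates 1 and 2 alone 1656 (1018 lower, 638 higher), and the stricter thresholds (adjusted p of 0.05 and log2 fold change of 1 in size) gave 416 (384 lower, 32 higher) and, between the lines, 421. DESeq2 size factors, no filter on low counts, *Rn45s* kept, dispersions that were not robust and an adjusted p under 0.05 with no fold threshold moved the total, to between 842 and 1015, by less than 1.5 times.

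Leaving out 1 library at a time gave 466 to 1469 genes, 429 to 1023 lower and 31 to 446 higher, and 522 to 1117 genes between the lines. Of the 109 named genes that were called, 42 were called with no replicate block and 66 when any 1 library was left out. The 1004 genes, chosen by a large difference in the same libraries, kept their sign in each setting in which they had a value. Among all named genes the sign changed for *Gm364*, which was not called in 67NR, with values of -0.41 to 0.0597 when 1 library was left out, being 0.02 when replicate 1 of *Kmt2c* KO was left out and 0.0597 when replicate 1 of *Kmt2d* KO was. The median position of *Kmt2d* KO between *Kmt2c* KO and WT moved from 32.1% to 50.7% for lower genes and from 54.1% to 30.1% for higher genes on the log2 scale, an alternative chosen after seeing the data, because a ratio of levels and a ratio of their logs differ by construction. The cause of the other changes was not tested. The 4 residual degrees of freedom and the few reads of genes below 1 CPM limit what the comparison can show.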
